A study of Mus musculus with 16 samples.

Results

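Newly made RNA of K1-NanER cells was compared with that of the parental K1 cells, gene by gene, over all 1556 genes of the authors' table of 4-thiouridine (4sU) labelled RNA. The whole series lists 2247 genes in its expression tables, and 4 of its 16 samples belong to this comparison. All 3 lines of the table share the parental background, which the labels describe as an erythroblast line with no KLF1. K1-NanER cells also carry a Nan-KLF1-ER transgene, and their 2 libraries came from clones B and X. The 2 K1 libraries came from parental cells with no transgene. K1-ER cells, with 2 libraries from clones A and C, carry KLF1-ER, and their values are set beside those of K1-NanER. The labels give every line 200 nM 4-hydroxytamoxifen and 500 uM 4sU for 1 h, and they state no length of induction for these libraries. Transgenic clones were compared with uncloned parental cells, so the transgene and the choice of clone cannot be told apart. Nothing in the labels says that the 2 parental libraries came from separate cultures.

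KLF1 is a zinc finger transcription factor of red cell precursors that binds CACCC boxes and activates globin, heme and membrane genes. Nan is a semi-dominant mouse mutation of KLF1 that causes neonatal anemia. It substitutes an amino acid in the second zinc finger and changes the DNA sequence that the protein prefers. Fusion to the hormone-binding part of the estrogen receptor (ER) keeps such a factor out of the nucleus until tamoxifen is added. 4sU is taken up into RNA as it is made, and the labelled RNA is then captured, so the values stand for synthesis during labelling more than for the stored RNA.

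Levels are FPKM, fragments counted per length of transcript and per depth of library, with a single deposited value for each line. They carry no spread between libraries, and a gene is called here when its q in the authors' deposited table is at most 0.05. Of the 1556 genes, 1178 were called in K1-NanER (75.7%). Every listed gene was called in K1-NanER or in K1-ER, so this share is not one of all genes measured. In K1-NanER 737 genes rose (47.4%) and 441 fell (28.3%). The other 378 genes are listed only because they were called in K1-ER.

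The genes that rose had lower K1 levels than the genes that fell. Direction was set by the ratio to K1, which by itself favours low K1 levels among rises and high ones among falls. The genes that rose had a median of 6.30 FPKM in K1 and 20.2 FPKM in K1-NanER, with a median log2 ratio of 1.63. The genes that fell had a median of 46.1 FPKM in K1 and 17.6 FPKM in K1-NanER, with a median log2 ratio of -1.40. Ratios of at least 3 on the log2 scale were found for 110 rises, and falls of that size for 16 genes. A level of 0 appears in the table as 0.1 FPKM, called the floor here. It was the K1 value of 63 genes that rose and the K1-NanER value of 7 genes that fell. A gene at the floor is named below by its levels, with no ratio. The receptor part of the fusion served as a check of the labels: Esr1 was at 2.41 FPKM in K1, 70.3 in K1-NanER and 136 in K1-ER. Klf1 is not among the listed genes.

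**Figure D1:**
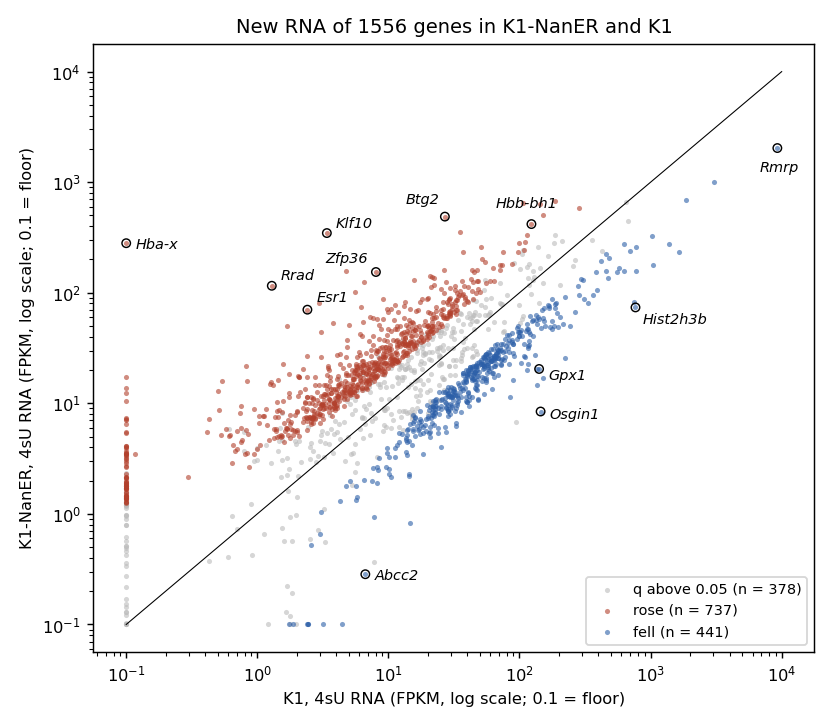
Level of each of the 1556 listed genes in K1 (x axis) and K1-NanER (y axis), both in FPKM on log scales, with genes at 0 drawn at the floor of 0.1. The 737 genes that rose lie above the line of equal levels and reach the floor of K1, the 441 that fell lie below it and cluster at higher K1 levels, and the 378 genes in grey had a q above 0.05 in the authors' deposited table.

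The sequence context of the peaks near these genes is given first, because the same letters could stand beside genes of both directions. A gene was given a Nan-KLF1 peak when the authors' list of 2758 peaks, from 1 ChIP library made of 3 pooled replicates after 3 h of tamoxifen, names it as the nearest gene. The list gives an 8-letter motif at the centre of most peaks. CCACGCCC is a classical KLF1 box, with C at the fourth letter, counted from the left as written. CCCCGCCC, a GC box, also has C there, while CCCTGCCC and CCCAGCCC have T or A. The 7 stretches below come from called genes with a promoter peak and one of these motifs. For 3 motifs a gene that rose is followed by one that fell, and CCCTGCCC is shown for a fall alone. CCCTGCCC was the motif of the highest peak of 28 called genes that rose and 9 that fell. All called genes with a Nan-KLF1 peak gave 232 rises and 55 falls. Each is a stretch of 80 bases within the 250 before the start of the gene, on the strand of the gene, from RefSeq promoters of GRCm38.p6. Capitals mark the motif named for the peak, on either strand.
Tmsb10, chr6:72958403-72958482, minus strand, rose, CCACGCCC: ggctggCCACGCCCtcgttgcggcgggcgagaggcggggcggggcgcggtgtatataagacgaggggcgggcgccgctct
1700026L06Rik, chr2:28699652-28699731, minus strand, fell, CCACGCCC: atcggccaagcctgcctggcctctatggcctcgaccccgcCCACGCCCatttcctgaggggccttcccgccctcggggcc
Slc6a3, chr13:73536632-73536711, plus strand, rose, CCCAGCCC: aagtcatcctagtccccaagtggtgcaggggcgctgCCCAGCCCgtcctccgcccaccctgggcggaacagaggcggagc
Hist2h3c2, chr3:96239298-96239377, minus strand, fell, CCCAGCCC on the opposite strand: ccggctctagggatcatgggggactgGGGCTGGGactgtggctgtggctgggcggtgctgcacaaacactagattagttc
Smox, chr2:131491782-131491861, plus strand, rose, CCCCGCCC: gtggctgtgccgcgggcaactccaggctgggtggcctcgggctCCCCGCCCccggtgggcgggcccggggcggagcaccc
Nqo1, chr8:107403243-107403322, minus strand, fell, CCCCGCCC: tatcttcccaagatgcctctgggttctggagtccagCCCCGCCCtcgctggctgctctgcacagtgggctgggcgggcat
Osgin1, chr8:119437067-119437146, plus strand, fell, CCCTGCCC: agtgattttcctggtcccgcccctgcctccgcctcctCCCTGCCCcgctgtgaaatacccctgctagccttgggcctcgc
The peaks are placed on mm9, so their summits were not laid on these windows. Of 100 called genes with a promoter peak and a motif, 56 held that motif in the RefSeq bases upstream of their start. A RefSeq promoter was matched for 943 of all 1178 called genes, and the rest of the 100 include genes with no bases to search.

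Genes with a Nan-KLF1 peak rose more often than genes without one. The peak list names 2143 genes, of which 287 were called in K1-NanER. They are 13.4% of the genes with a peak and 24.4% of the called genes. Of these 287 genes 232 rose and 55 fell, a share of 80.8% that rose (95% Wilson interval 75.9 to 85.0, for counting error only). Of the 891 called genes without a peak 505 rose, which is 56.7% (53.4 to 59.9). A peak was near 31.5% of the genes that rose, 12.5% of those that fell and 33.3% of the 378 listed genes that were not called. Peaks were thus less common among the called genes as a whole than among the listed genes with no call, and the share among the rises was close to the latter. Those 378 genes are listed only because they were called in K1-ER, so they are not a neutral background.

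A KLF1 peak at the same place went with a still higher share of rises. Of 180 called genes with a Nan-KLF1 peak that overlaps a KLF1 peak by at least 1 bp, 85.6% rose. The share was 72.9% of the 107 genes whose Nan-KLF1 peaks overlap none, and 72.5% of 265 genes with a KLF1 peak and no Nan-KLF1 peak. The 626 genes with no peak of either factor divided evenly, 313 up and 313 down. By the authors' own intersection, the shares of genes with a shared and with an unshared Nan-KLF1 peak were 82.9% and 79.3%, closer together than by overlap. By position of the highest peak, 88.1% of 59 genes with a distal peak rose and 78.6% of 98 with an intron peak. The share was 81.8% of 121 genes with a promoter peak and 80.1% of the other 166. It was 81.4% where the highest peak reached the list's median fold enrichment of 107 and 79.5% where it did not.

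Direction followed the central motif little. With C at the fourth letter of the motif of the highest peak, 83.6% of 116 genes rose. With A or T there, 77.0% of 100 genes rose, and with no motif 81.7% of 71. Over all peaks, CCCTGCCC was the motif of 13.0% of Nan-KLF1 peaks and 3.40% of KLF1 peaks. CCCAGCCC was the motif of 11.2% and 4.11%. CCACGCCC went the other way, at 5.98% and 17.4%, as did CCACACCC, at 1.02% and 10.4%.

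The bare promoter letters differed between rises and falls for some motifs. The 300 bases around the start (250 before, 50 after) of 943 called genes were searched on both strands for 18 motifs, and matches to different motifs can overlap. CCCTGCCC was in 11.6% of 568 promoters of genes that rose, 4.27% of 375 of genes that fell and 6.72% of all coding genes. CCCAGCCC was in 14.3%, 8.27% and 7.79%. CCCCGCCC was in 52.6%, 34.4% and 26.2%. CCACGCCC was in 14.4%, 12% and 7.91%, and CCACACCC in 5.63%, 5.87% and 4.21%. Over all 943 promoters, the genes that rose therefore held GC-rich boxes of several kinds more often, with C at the fourth letter as well as with T or A. Among those with a promoter peak, 73 rose and 19 fell, and the order was mixed. CCCAGCCC was in 26.0% of these rises and 31.6% of these falls, and CCACGCCC in 21.9% and 26.3%. CCCCGCCC was in 72.6% and 68.4%, CCCTGCCC in 17.8% and 10.5%, and CCACACCC in 4.11% and 0%. A match describes the letters of the window and is not a measured binding site.

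Among genes with a peak, the largest rises included genes listed at the floor in K1. Tex13 was at 0.1 FPKM in K1 and 13.7 in K1-NanER, against 0.0944 in K1-ER. Insl6, an insulin-family gene, was at 0.1 and 10.6 FPKM, with 3.19 in K1-ER. Tmsb10, an actin-binding thymosin, was at 0.1 and 7.37 FPKM, and Slc6a3, the dopamine transporter, at 0.1 and 7.16. These 4 were at the floor in K1, and Tex13 alone of them stayed there in K1-ER. Pdzk1ip1, a small membrane protein gene beside Tal1, was at 0.1 and 5.46 FPKM, and Anxa5, which binds phosphatidylserine, at 0.1 and 4.15. Rrad, a Ras-related GTPase, was at 1.29 and 116 FPKM (log2 ratio 6.49).

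Falls with a peak were fewer. Osgin1, a growth inhibitor induced by oxidative stress, was at 145 FPKM in K1 and 8.43 in K1-NanER (log2 ratio -4.10). 1700026L06Rik had 2.43 FPKM in K1 and reached the floor in K1-NanER and K1-ER. Abcb8, a mitochondrial transporter, was at 24.0 and 5.43 FPKM (-2.15), and Klhl35, an adaptor of ubiquitin ligases, at 10.1 and 2.53 FPKM. Rmrp, the RNA of the RNase MRP ribozyme, was at 9267 and 2036 FPKM (-2.19), the highest K1 level of any listed gene.

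The size and share of rises differed by the number of peaks. With 1 peak 78.2% of 216 called genes rose, with 2 peaks 90.9% of 55 and with 3 or more 81.2% of 16, and the median log2 ratios of the rises were 1.75, 1.90 and 2.67. The gene with most peaks was 8430427H17Rik, with 10 peaks, and it was at 5.68 FPKM in K1 and 13.2 in K1-NanER (log2 ratio 1.22). Irf2bpl, with 6 peaks, was at 26.4 and 16.6 FPKM. Ccnd3, the cyclin D of late red cell divisions, had 4 peaks and was at 36.0 and 64.8 FPKM. Rxra had 4 peaks at 20.5 and 29.1 FPKM, and Rbm38 4 peaks at 151 and 121 FPKM. These 4 genes were not called. The highest fold enrichment, 858, stood at Sema4b, which was at 70.6 and 159 FPKM (1.17). Also high were Cttnbp2nl with 759 (log2 ratio 1.53), Cbfa2t3, the corepressor ETO2, with 732 (1.62), Hist2h3c2 with 526 (-1.84) and Junb with 512 (2.15).

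Direction also depended on which chromosome a gene lay. Over all 20 chromosomes with called genes, the share that rose ran from 19.2% on chromosome 7 to 97.6% on chromosome 12. Chromosome 7 had 104 called genes, of which 84 fell. Chromosome 8 was alike, with 20.3% of 59 genes rising, and the share was 33.9% of 59 on chromosome 5, 36.0% of 86 on chromosome 2, 41.2% of 85 on chromosome 4 and 48.5% of 33 on chromosome 6. These 6 chromosomes, grouped after their shares were seen, held 66.2% of all falls and 18.2% of all rises. At the other end, 93.8% of 32 genes rose on chromosome 16, 89.2% of 93 on chromosome 11 and 86.9% of 84 on chromosome 1.

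In K1-ER the shares on these chromosomes were all over 50%. There 768 of the listed genes were called (49.4%) and 76.7% of them rose. The share was 78.7% on chromosome 7, 75.7% on 8, 78.8% on 5, 64.6% on 2, 77.4% on 4 and 59.1% on 6. Chromosomes 2, 6 and 8 were thus under the share of all genes called in K1-ER. Both lines were set against the same K1 libraries. The 84 genes that fell on chromosome 7 had a median log2 ratio of -1.36 in K1-NanER and -0.53 in K1-ER. They were chosen by their fall in K1-NanER, which favours a deeper median in that line. Genes that fell on chromosome 1 had medians of -1.35 and -0.83, and those on chromosome 9 of -1.26 and -0.64. On chromosome 15 the medians were -1.48 and -1.72. On chromosome 13 the share in K1-NanER was 65.7%, and 93.3% without the histone genes of the replication-dependent kind, which lie there in a cluster. In K1-ER it was 28.9% of 38 called genes with the histone genes kept, the only share under 50% in that line. Over all chromosomes, histone genes of that kind gave 29 falls and no rise in K1-ER. Of those listed, 30 lie on chromosome 13, so the share of 28.9% holds many of them. The K1-ER share without them was not computed.

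**Figure D2:**
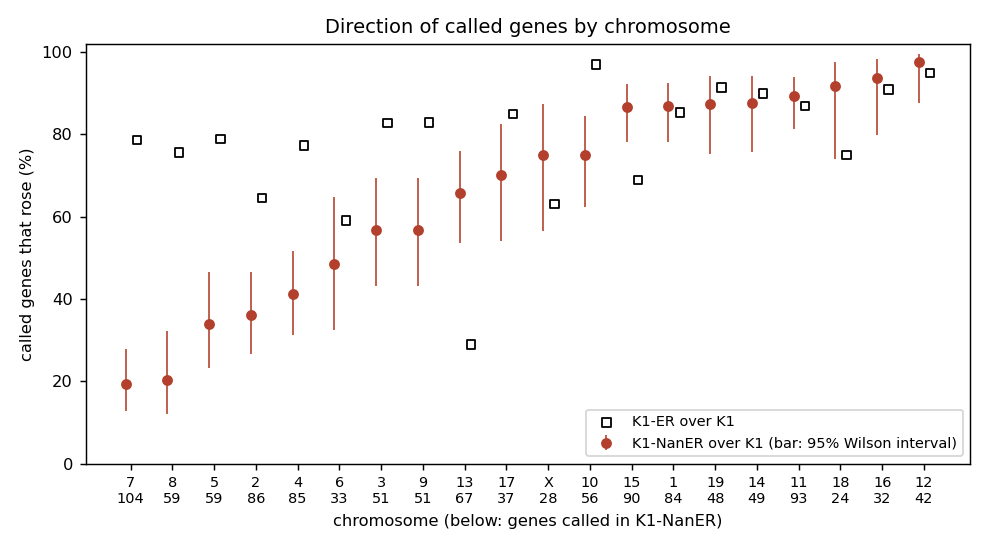
Share of called genes that rose on each chromosome, in percent, ordered by the share in K1-NanER, with 95% Wilson intervals as bars and the number of genes called in K1-NanER under each chromosome; squares are K1-ER over the same K1 libraries. Chromosomes 7, 8, 5, 2, 4 and 6 lie under 50% in K1-NanER and over 50% in K1-ER.

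The chromosome pattern and the peak pattern were both present inside each other. On the 6 chromosomes 57.6% of 92 genes with a peak rose, against 24.3% of 334 without one. On the others 91.8% of 195 genes with a peak rose, against 76.1% of 557 without. The share was higher with a peak than without one on 19 of 20 chromosomes. Clones B and X have no values of their own in the table, so whether both share the pattern was not tested.

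Longer loci rose more often. The median locus was 29.7 kb for genes that rose and 11 kb for genes that fell. In 5 bins of called genes by locus length, 41.1%, 48.1%, 60.6%, 77.9% and 85.2% rose, from the shortest (0.28 to 6.21 kb) to the longest (60.3 to 574 kb). Genes with a Nan-KLF1 peak varied little, from 76.0% in the shortest bin to 86.0% in the longest. Genes without one went from 31.7% to 84.9%. A peak therefore marked a higher share of rises among short genes and hardly any difference among the longest. On the 6 chromosomes the shares by length were 28.8%, 21.4%, 23.9%, 46.3% and 54.2%, and on the others 52.0%, 72.4%, 82.4%, 90.5% and 93.1%.

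**Figure D3:**
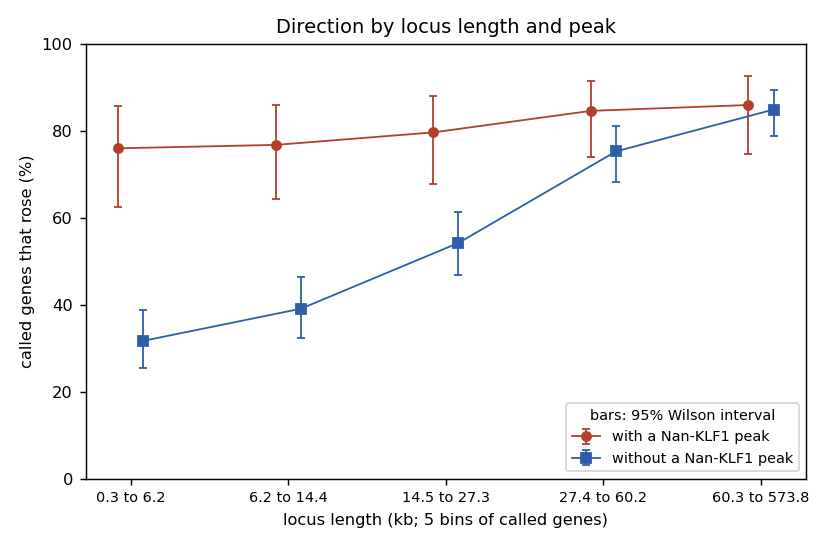
Share of called genes that rose, in percent, in 5 bins of locus length in kb, for genes with and without a Nan-KLF1 peak; bars are 95% Wilson intervals. With a peak the share stays between 76.0% and 86.0%, and without a peak it climbs from 31.7% to 84.9%.

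The lists of genes below describe pathways. Their counts and medians are to be read against all 1178 called genes, of which 62.6% rose, and against the median log2 ratio of all listed genes, 1.04. Among transcription factors, all 7 called members of the Kruppel-like and Sp family rose, of 9 listed, with a list median of 1.58. These proteins bind GC and CACCC boxes as KLF1 does. Klf10, a repressor induced by TGF-beta, was at 3.39 FPKM in K1 and 347 in K1-NanER (log2 ratio 6.67) and has 3 peaks. In K1-ER it was at 399 FPKM. Klf11 was at 8.81 and 46.8 FPKM (2.41), and Klf6 at 2.86 and 12.7 (2.16). Klf2 was at the floor in K1, at 3.18 FPKM in K1-NanER and at 0.731 in K1-ER, where it was not called. Klf9, Sp3 and Sp1 rose by 1.37, 1.58 and 1.13 on the log2 scale.

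Immediate early genes, switched on within minutes of a signal, gave 5 rises and 1 fall among 11 listed, with a list median of 1.14. Junb, an AP-1 subunit, was at 143 FPKM in K1, 631 in K1-NanER and 865 in K1-ER. Zfp36, which destabilises AU-rich mRNA, was at 8.03, 154 and 56.4 FPKM and has 3 peaks. Jun had 1.88 FPKM in K1-NanER, from the floor in K1. Dusp8, a MAP kinase phosphatase, fell from 36.2 to 13.7 FPKM.

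Cell cycle regulators gave 7 rises and no fall among 12 listed, with a median of 1.69. Mxd3, an antagonist of MYC, was at 4.73 and 158 FPKM (log2 ratio 5.06). The CDK inhibitors Cdkn2c and Cdkn1a were at 6.03 and 42.0 FPKM (2.80) and at 4.82 and 32.5 FPKM (2.75). Ccne2, a cyclin of S-phase entry, was at 7.27 and 60.2 FPKM (3.05). The rises thus held both inhibitors and a promoter of division. Cdkn1a was called in K1-ER too, at 51.3 FPKM, while Ccne2 was at 8.39 FPKM and Cdkn2c at 15.1 there, both not called. A direct comparison of the 2 transgenic lines was not tested.

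Targets of p53 and genes of the BCL2 family gave 13 rises and 2 falls among 17 listed, with a median of 1.44. Btg2, an antiproliferative gene with 3 peaks, was at 27.0 FPKM in K1 and 488 in K1-NanER (log2 ratio 4.18). Trp53i13 was at 1.70 and 50.2 FPKM (4.88). Sesn1, a stress-induced inhibitor of mTORC1, was at 3.54 and 20.2 FPKM (2.51), and Trp53inp1 at 1.19 and 6.39 (2.43). All 4 had several times their K1 level in K1-NanER. The 2 falls were Bax, from 87.8 to 36.0 FPKM (-1.29), and Aen, from 77.8 to 29.6 (-1.39), both on chromosome 7. K1-ER gave 9 rises and 1 fall on the same list. Btg2, Trp53i13 and Sesn1 were called there too, at 337, 44.8 and 12.2 FPKM, and Trp53inp1, at 1.69 FPKM, was not.

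Red cell genes were divided. Of the globins, 3 rose: Hba-x, the embryonic zeta chain, was listed at 0.1 FPKM in K1 and had 281 FPKM in K1-NanER. Hbb-y, the embryonic epsilon chain, was at 20.8 and 141 FPKM (log2 ratio 2.76). Hbb-bh1, another embryonic beta-type chain, was at 123 and 418 FPKM (1.76), against 4174 FPKM in K1-ER. Hbb-y and Hbb-bh1 resemble other beta-type genes, and reads could be divided between them. Ahsp, the alpha globin chaperone, and Beta-s, the adult beta chain, had 0.619 and 1.26 FPKM in K1-NanER from the floor in K1, both not called. In K1-ER they were at 7.43 and 22.4 FPKM and were called. At levels so near the floor, the lack of a call in K1-NanER does not show that they were unchanged. The 3 globins called in K1-NanER were those of the embryo.

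Heme and iron genes gave 4 rises and 4 falls among 15 listed, with a median of 0.22. K1-ER gave 11 rises and no fall on the same list. Tfrc, the transferrin receptor, was at 21.1 and 112 FPKM (log2 ratio 2.41), and Alas2, which starts heme synthesis, at 5.81 and 26.0 (2.16). Ftl1, the ferritin light chain, fell from 1033 to 325 FPKM (-1.67), and Blvrb, biliverdin reductase B, from 118 to 36.3 (-1.70). Both lie on chromosome 7. Of the 4 falls 3 lay on the 6 chromosomes with low shares, against 66.2% of all falls.

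Membrane and cytoskeleton genes of the red cell gave 5 rises and 1 fall among 12 listed, with a median of 0.61. Cd24a, a surface glycoprotein, was at 51.3 and 261 FPKM (log2 ratio 2.35). Epb4.9, which bundles actin, was at the floor in K1, at 3.47 FPKM in K1-NanER and at 8.54 in K1-ER. Ank1, the ankyrin of the red cell membrane, fell from 38.6 to 16.5 FPKM (-1.23) although 2 peaks name it, and it was at 33.7 FPKM in K1-ER. Among erythroid transcription and signalling genes 4 rose and 1 fell, with a median of 0.49. Jak2, the kinase of the erythropoietin receptor, was at 3.05 and 26.5 FPKM (3.12) against 6.23 in K1-ER, and Nfe2, a globin activator, at 8.07 and 30.5 (1.92) against 148.

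In several lists most called members fell, against 62.6% of all called genes that rose. Of 38 listed replication-dependent histone genes, which make chromatin during S phase, 27 fell and 2 rose, with a median of -1.82. Their count in K1-ER was 29 falls and no rise. Hist2h3b was at 767 FPKM in K1 and 73.7 in K1-NanER (log2 ratio -3.38), and Hist1h3e at 753 and 82.8 (-3.18). Hist2h4 was at 1656 and 236 FPKM (-2.81), and Hist1h1b, a linker histone, at 1037 and 179 (-2.54). Falls were found in every class: 3 of H1, 7 of H2A, 6 of H2B, 4 of H3 and 7 of H4. The 2 rises were of H2A, among them Hist1h2ab at 283 and 586 FPKM (1.05). These genes are near copies of each other, so reads could be divided between them. Only 1 of the 27 falls lay on the 6 chromosomes with low shares, against 66.2% of all falls. The variant histones, which can be made outside S phase too, gave 2 rises and 3 falls. H3f3a, which encodes H3.3, was at 25.0 and 109 FPKM (2.12), and H2afx at 573 and 168 (-1.77).

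Genes of oxidative stress defence gave 11 falls and no rise among 13 listed, with the lowest median of the lists of pathways, -2.38. K1-ER gave 9 falls and 1 rise. Gsta3, a glutathione transferase, had 3.18 FPKM in K1, with both transgenic lines at the floor. Srxn1, which restores peroxiredoxins, was at 84.2 and 11.4 FPKM (log2 ratio -2.89) and at 4.49 in K1-ER. Nqo1, a quinone reductase, was at 18.2 and 3.50 FPKM (-2.38). Gpx1, a glutathione peroxidase, differed between the lines in its values: it was at 141 FPKM in K1, 20.5 in K1-NanER (-2.79) and 284 in K1-ER. Of the 11 falls 6 lay on the 6 chromosomes with low shares, against 66.2% of all falls.

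The ATF4 and integrated stress response list gave 7 falls and no rise among 12 listed, with a median of -1.21, against 5 rises and 2 falls in K1-ER. Chac1, which degrades glutathione, was at 28.5 and 7.62 FPKM (log2 ratio -1.90). Trib3, a pseudokinase that restrains this response, was at 55.4 and 16.4 FPKM (-1.76), and Cebpb at 55.4 and 17.0 (-1.71). Slc7a11, the cystine transporter, was at 3.04 and 1.04 FPKM (-1.54). Atf4 itself and its target Ddit3, picked out after their values were seen, were not called, at 186 and 330 FPKM and at 54.6 and 130 FPKM. Chac1, Trib3 and Cebpb lie on chromosome 2, and 4 of the 7 falls lay on the 6 chromosomes, against 66.2% of all falls.

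Ribosomal proteins of the cytosol gave 12 falls and 3 rises, all 15 listed members being called, with a median of -1.31. Rpl13 was at 387 FPKM in K1 and 107 in K1-NanER (log2 ratio -1.86), and Rpl37 at 205 and 60.3 (-1.77). Rpl21 was at 45.3 and 153 FPKM (1.75). Rps27l, a p53-induced paralog, was at 26.4 and 160 FPKM (2.60). Reads of pseudogene copies could enter these values. All 3 listed mitochondrial ribosomal proteins fell, and Mrpl34, at 115 FPKM in K1, fell by 2.52 on the log2 scale. Of 6 respiratory chain and ATP synthase genes 5 fell, with Ndufa13 at 20.3 and 5.40 FPKM (-1.91), and Atp5g2 rose from 43.3 to 161 FPKM (1.89). These lists hold short loci, with medians of 2.77, 1.64 and 6.52 kb against 17.8 kb over all listed genes. Of their falls 9 of 12, 3 of 3 and 3 of 5 lay on the 6 chromosomes, against 66.2% of all falls. The part of length and chromosome in the falls was not tested.

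C2H2 zinc finger repressors followed the chromosomes in their counts. Among 44 listed, 15 rose and 18 fell, with a median of 0.10. Of the 18 falls 17 lay on the 6 chromosomes, against 2 of the 15 rises. Those chromosomes held 66.2% of all falls and 18.2% of all rises. Zfp654 on chromosome 16 was at 1.17 and 8.94 FPKM (log2 ratio 2.93), while Zfp628 on chromosome 7 was at 55.7 and 15.7 (-1.83). The list was collected by name, and Zfp36 in it is of another zinc finger type.

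In the remaining lists most called members rose, as did 62.6% of all called genes. Small GTPases and their regulators gave 24 rises and 6 falls among 37 listed (median 1.21), and ubiquitin ligases, conjugating enzymes and deubiquitinases 25 and 9 among 43 (1.16). Kinesins, dyneins and myosins gave 5 rises, chromatin modifiers 10 rises and 2 falls with a median of 1.45. Among the latter, Dnmt3b, a DNA methyltransferase, was at 0.755 and 9.44 FPKM (log2 ratio 3.64), and Sirt1, a deacetylase, at 8.47 and 50.9 (2.59). Cholesterol and fatty acid synthesis gave 6 rises and 1 fall with a median of 1.54. Mid1ip1, which activates acetyl-CoA carboxylase, was at 35.2 and 356 FPKM (3.34), and Scd2, a desaturase, at 22.4 and 137 (2.61). Solute carriers gave 15 rises and 7 falls among 33 listed with a median of 0.63, under that of all listed genes, and splicing factors 5 rises and 2 falls among 9 with a median of 1.11.

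**Figure D4:**
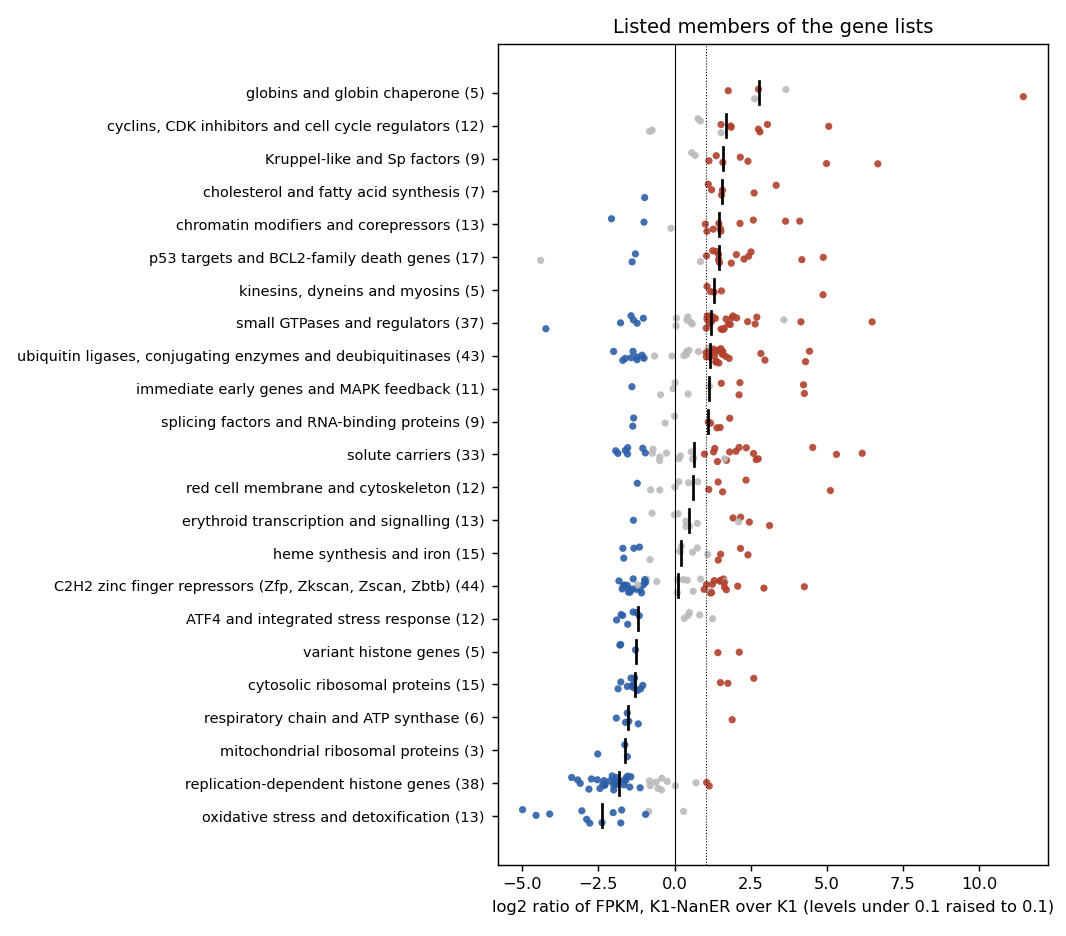
Log2 ratio of FPKM, K1-NanER over K1, for each listed member of the 23 gene lists on pathways (number listed in parentheses), with levels under 0.1 raised to 0.1; red points rose, blue points fell, grey points were not called, black bars are list medians and the dotted line is the median of all listed genes, 1.04. The point of Hba-x, far to the right, rests on the floor in K1. Oxidative stress and histone genes lie lowest.

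In absolute level, noncoding RNAs stood at both ends. Gas5, a host of small nucleolar RNAs, gained most, from 107 to 650 FPKM (log2 ratio 2.60), and Snhg1, another such host, went from 151 to 505 (1.74). Ptma, prothymosin alpha, was at 186 and 670 FPKM (1.85). Rmrp lost most, and Rpph1, the RNA of RNase P, fell from 3027 FPKM by 1.60 on the log2 scale. Rmrp and Rpph1 are short transcripts of RNA polymerase III, and each is the nearest gene of a Nan-KLF1 peak.

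The libraries were read against markers of other cells as far as the listed genes allow. Of 101 markers in 8 lists of other blood, vessel and liver cells, 4 are listed. Vwf was at 5.13 and 1.99 FPKM, Ccr8 at 2.42 FPKM and the floor, and Dlk1 at 3.01 and 0.651 FPKM, and these 3 fell. Cd79a was at the floor and 1.13 FPKM and was not called. The markers of red cell precursors gave 3 rises and 1 fall among 6 listed, and Epor, the erythropoietin receptor, was at 129 and 139 FPKM, not called. Genes with no call in either line are not listed, so the other markers could not be read.

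The fetal liver table offered values from samples not shared with the cell lines. It compares total fetal liver of Nan/+ embryos, which keep a normal Klf1 allele, with wild-type liver at embryonic day 14.5, with 3 libraries each and RNA depleted of globin. It lists 793 genes, of which 598 rose (75.4%). In bulk liver, fewer cells of a type and less RNA per cell cannot be told apart. Called genes in both tables numbered 60. Of the 33 that rose in K1-NanER, 22 rose in liver (66.7%), and of the 27 that fell in K1-NanER, 22 rose in liver (81.5%). Direction in the cells thus did not sort direction in liver. Across the 60 genes Pearson's r was 0.18 and Spearman's rho 0.07, as a description, since genes share libraries.

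Some single genes moved alike in both. The authors' deposited tables give Pdzk1ip1 at 13.2 FPKM in wild-type liver and 304 in Nan/+ liver, and Insl6 at 0.410 and 8.01 FPKM. Hba-x was at 310 and 5717 FPKM there, with globin RNA depleted. Slc39a14, a zinc and iron importer, was at 0.810 FPKM in K1 and 3.51 in K1-NanER, and at 6.85 and 178 in liver. Kifc2, a kinesin, was at 15.5 and 131 FPKM in the cells and at 0.590 and 13.0 in liver. Other genes moved in opposite directions. Epb4.9, listed at the floor in K1 and at 3.47 FPKM in K1-NanER, was at 84.8 FPKM in wild-type liver and 7.98 in Nan/+ liver. Gm13826 was at 136 and 14.7 FPKM in the cells and at 19.9 and 88.5 in liver. Cebpb, which fell in the cells, was at 2.53 FPKM in wild-type and 10.4 in Nan/+ liver, and Rragd, a GTPase of amino acid sensing, rose in the cells and was at 3.45 and 0.690 FPKM in liver.

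**Figure D5:**
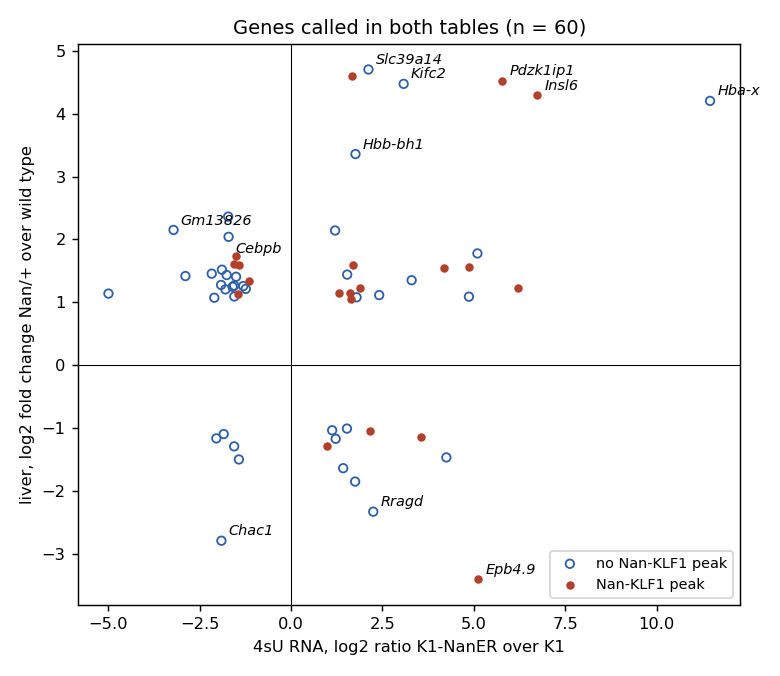
Log2 ratio in 4sU RNA, K1-NanER over K1 (x axis), against the authors' deposited log2 fold change in liver, Nan/+ over wild type (y axis), for the 60 genes called in both tables; filled points have a Nan-KLF1 peak. The upper right and upper left fields hold 22 genes each, the lower right 11 and the lower left 5.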

How the data were processed

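The 4sU libraries (2 per line) were not analysed here as reads or counts. Expression values are FPKM, deposited by the authors as 1 value per group, so no model was fitted, and no depth per sample, spread or interval of a level can be given. The p-value, q-value and log2 fold change are those of the authors' deposited table, whose smallest p-value is 5e-05, and a gene was called at a q of at most 0.05. Per the submitters' processing notes, the tools included MACS 1.4.2 and TopHat2 2.0.10, with build mm9. Which program made FPKM and q, and which step assigned genes and motifs to peaks, is not given in the sources used here. Fold enrichment is a ratio to input deposited by the authors for each peak, from 1 library per factor. Tamoxifen is missing from the header of the K1 column but is in the labels of its samples.

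Log2 ratios were recomputed from the deposited FPKM with levels under 0.1 raised to 0.1, which moved 6 genes, none of them called. Shares carry 95% Wilson intervals (Python 3.11.15, pandas 2.3.3, scipy 1.17.1), which cover counting error only, and genes are not replicates. Locus length is the span given in the table. The counting was tested on simulated data. RefSeq promoters were matched by symbol for 943 of 1178 called genes. The genes and lists were chosen with earlier results of these data known. Named genes are the receptor part of the fusion, the 10 largest gains and losses in FPKM, the 8 largest rises and falls with a peak, the 5 genes with most peaks, the 6 of highest fold enrichment, up to 4 called members by size of each list (all where 5 or fewer), and the leading genes shared with the liver table. Some genes that this rule names are not reported here. Sequences come from called genes with a promoter peak whose motif is in the RefSeq window. Alternatives were a stricter q, a pseudocount, a minimum level, and other definitions of peaks, overlap and length bins.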

Additional observations from a re-analysis of the deposited data

How the results depend on the processing

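The table holds 1 value per group, so the spread between clones or libraries is unknown and no library could be left out. No paired analysis was possible because the columns carry 1 value per group. Genes called in neither line are not listed, which limits every share to called genes. At a q of at most 0.01 in the authors' deposited table, 638 genes were called, 439 rises and 199 falls. Of 129 called genes named by the rule, 31 had a q above that. With a pseudocount of 1 FPKM the median log2 ratios were 1.40 for rises and -1.32 for falls. Counting any Nan-KLF1 peak within 10 kb of the locus, in place of the nearest gene, 71.9% of 367 called genes with a peak rose. Of the 811 called genes without one, 58.3% rose. These shares were closer together than the 80.8% and 56.7% found by nearest gene. In all, 38 of 44 alternatives for counts, shares and medians kept their direction and, apart from a share named below, stayed close to the values reported. These include leaving out genes at the floor, histone genes and, chosen after seeing the data, the authors' own intersection of both peak lists. With that intersection 79.3% of 164 genes with unshared Nan-KLF1 peaks rose, against 72.9% of 107 by overlap. That share was then near the 82.9% of genes with a shared peak.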
